A study of Arabidopsis thaliana with 6 samples.

Results

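The 64 genes described here were clearly higher in root tips of *bron-2* than in root tips of the Columbia-0 wild type, and they were chosen by their measured values. A gene was selected on 3 conditions: an average of 5 FPKM or more over all 6 libraries, a lowest *bron-2* library above the highest wild type library, and a ratio of (*bron-2* mean + 1) to (wild type mean + 1) of at least 1.4. FPKM scales the fragments of a gene by transcript length and by the total mapped in that library, so levels can be compared between genes of different length. Of 33560 genes in the table, 12197 averaged 5 FPKM or more, and 64 of these, or 0.525%, met the whole rule. Because the rule used the comparison between genotypes itself, the direction and size of the differences are given as a description, with no test.

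*Arabidopsis* seedlings of both genotypes were grown for 5 days on plates with sucrose under long days, with no hormone or other treatment, and about 2 mm of root tip was taken. *bron-2* is 1 T-DNA insertion line in the gene AT1G75710, called BRON, which encodes a zinc finger protein of the C2H2 type. Each genotype had 3 biological replicates. Values of the 3 libraries are given throughout in the order of replicates 1, 2 and 3. BRON itself was at 17.9, 16.1 and 17.3 FPKM in wild type against 1.252, 0.925 and 1.097 FPKM in *bron-2*, so it was low in every library labelled *bron-2* and in none labelled wild type.

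A root tip of this length holds the stem cell niche, the dividing meristem, the root cap and the zone where cells elongate and begin to take on their final types. Elongating cells secrete enzymes and structural proteins that loosen, cut and rebuild the wall, and the secretory pathway folds these proteins in the endoplasmic reticulum (ER) before they leave the cell. Plant zinc finger proteins of the C2H2 type often act as transcription factors, many of them repressors.

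The tissue label was read against 35 marker genes of 7 cell types, none of which is among the 64. The 5 niche and meristem markers summed to between 33.7 and 37.7 FPKM in wild type and between 34.6 and 39.0 FPKM in *bron-2*, most of it from SCR, while PLT1 and PLT2, at 0.780 to 0.930 and 1.04 to 1.63 FPKM in wild type, were lower in every *bron-2* library, at 0.506 to 0.766 and 0.672 to 0.807 FPKM, and WOX5 stayed at or below 0.522 FPKM and was listed at 0 in *bron-2* replicate 1. Root cap markers summed to 80.2 to 94.6 FPKM in wild type and 70.8 to 83.0 FPKM in *bron-2*, root hair markers to 857 to 936 and 784 to 1045 FPKM, and xylem markers to 41.8 to 54.7 and 41.0 to 59.3 FPKM. All of these sums overlapped between the genotypes, although BRN2, 1 of the 3 root cap markers, was lower in every *bron-2* library. Suberin markers summed to 56.0 to 70.9 FPKM in wild type and 47.6 to 55.1 FPKM in *bron-2*, so the sums did not overlap, but most of each sum was ASFT. ASFT and CYP86B1, 2 of the 4, were lower in every *bron-2* library. Every *bron-2* library lay below every wild type library in 8.85% of the 12197 genes averaging 5 FPKM or more. PLT1, PLT2 and CYP86B1 did not reach that level. GPAT5 and CYP86A1 overlapped between the genotypes, and CYP86A1 had the higher mean in *bron-2*, at 0.940 against 0.294 FPKM. Green tissue markers summed to 23.3 to 35.8 FPKM in wild type and 22.9 to 30.3 FPKM in *bron-2*, most of it from CAB1. The other green tissue markers stayed at or below 5.20 FPKM in every library. The 7 markers of the endodermis with its Casparian strip summed to 1815, 2548 and 3063 FPKM in wild type and to 2662, 3085 and 3575 FPKM in *bron-2*, so wild type replicate 1 was the lowest library and the genotypes overlapped. CASP1 to CASP5 and ESB1 had ratios from 1.17 (ESB1) to 1.44 (CASP5), and MYB36 had a ratio of 0.96. In none of the 7 was every *bron-2* library above every wild type library, as was so for 7.58% of the 12197 genes. The part of cell makeup in the 64 differences was not tested. In whole root tips, more cells of a type and more RNA per cell cannot be told apart. Relative read depth, set to 1 in wild type replicate 1, was 0.951 and 1.12 in the other wild type libraries and 1.22 to 1.249 in *bron-2*.

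In the plot of ratio against level, the 64 genes form a thin fringe above a cloud centred on 0. The median ratio over the 64 was 1.52, a log2 ratio of 0.60, and the range was 1.403 to 6.21. Over all 12197 genes the median log2 ratio was 0.000689. Most of the differences were moderate, since 31 genes had a ratio under 1.5, 26 had a ratio from 1.5 to under 2 and 7 had a ratio of at least 2. The mirrored rule, with every *bron-2* library below every wild type library and the inverse ratio, found 145 genes, or 1.19%. Without any condition on the ratio, the groups did not overlap in 924 genes with *bron-2* higher (7.58%) and in 1079 with *bron-2* lower (8.85%). A ratio of at least 1.4, whether or not the groups overlapped, was reached by 106 genes (0.869%).

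**Figure D1:**
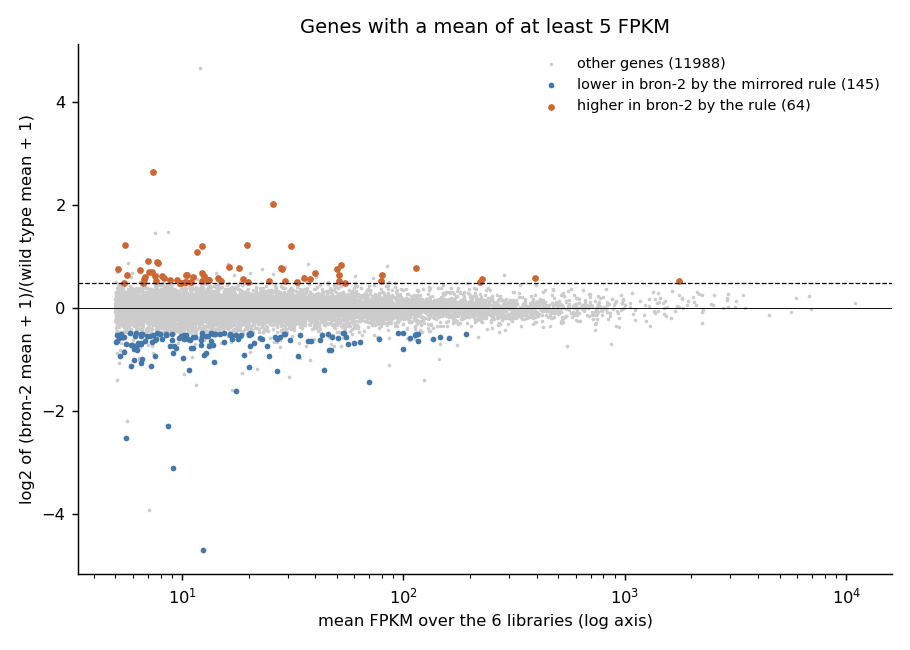
Each point is 1 of 12197 genes averaging 5 FPKM or more; the horizontal axis is the mean FPKM over 6 libraries on a log axis, the vertical axis is the log2 ratio of the *bron-2* mean + 1 to the wild type mean + 1, and the dashed line is a ratio of 1.4. The 64 genes of the rule (orange) lie above the line at all levels up to a mean of 1748 FPKM, most of them close to it, and 145 genes (blue) met the mirrored rule.

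The 64 genes were on the low side of the expression range. Their median level was 12.4 FPKM, against 19.1 FPKM over all 12197 genes, and 22 of them (34.4%) had a mean between 5 and 10 FPKM, as did 25.2% of all. The 4 genes just inside the ratio were AT2G41190, AT5G55050, AT1G65690 and AT4G38490, with ratios of 1.406, 1.404, 1.404 and 1.403. The 4 just outside it were AT5G40090, CEL3, AT5G25640 and AT1G62510, a lipid transfer family gene at a mean of 193 FPKM, with ratios of 1.3997, 1.395, 1.394 and 1.394. Just inside the level condition were AT1G76470 at a mean of 5.14 FPKM and AT4G38490 at 5.49 FPKM, and just outside it were IDD14 at 4.97 FPKM and RNS1, a secreted ribonuclease, at 4.87 FPKM. Genes on either side of these limits had nearly the same values.

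By the product names of the reference annotation and general knowledge, 16 of the 64 belong to the cell wall or are secreted, 9 to metabolism, 8 to protein folding and turnover, 7 to transport and membranes, 6 are DNA-binding or RNA-binding proteins or transcription regulators, 4 act in hormone, peptide or light signalling, 2 are non-coding RNAs, 6 carry another domain name and 6 are uncharacterized. The plot of all 64 genes by role gives every library of every gene.

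**Figure D2:**
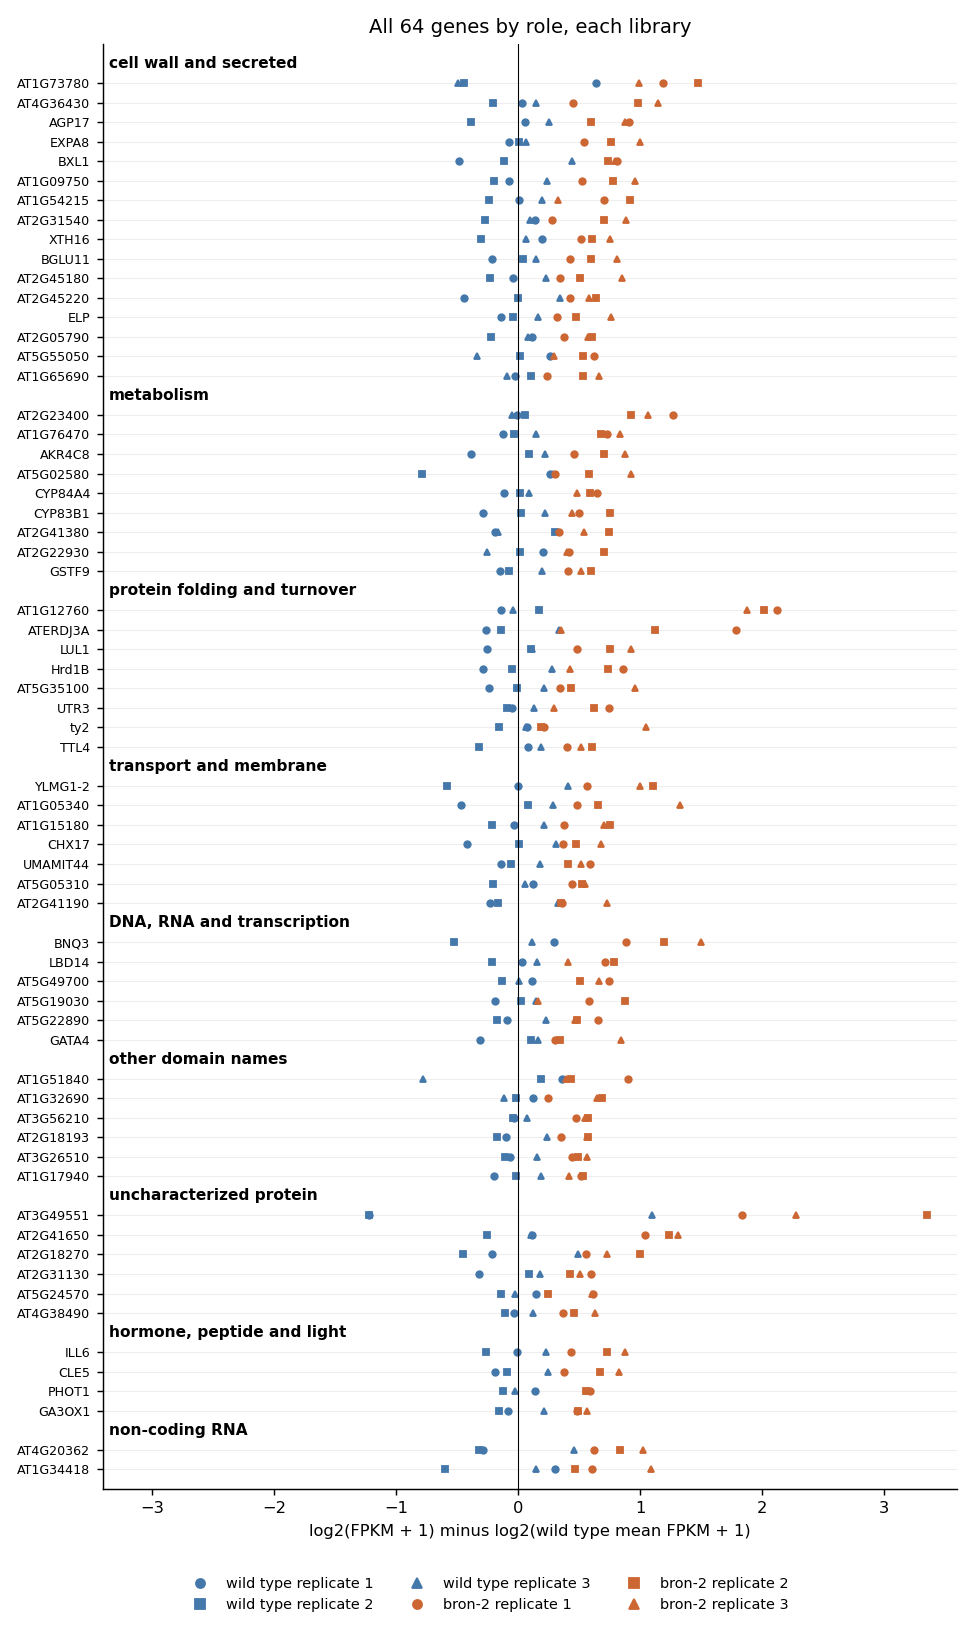
Each row is 1 of the 64 genes, grouped by role, and each symbol is 1 library, placed by its log2(FPKM + 1) minus log2 of the wild type mean + 1; blue symbols are the 3 wild type libraries and orange symbols the 3 *bron-2* libraries, with the same shape for the same replicate number. The rule sets every orange symbol to the right of every blue one, and the triangle of wild type replicate 3 is the rightmost blue symbol in 44 of the 64 rows.

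The cell wall and secreted proteins were the largest set and held the most abundant transcripts. EXPA8, an expansin that loosens the wall during growth, was at 19.2, 20.4 and 21.2 FPKM in wild type against 29.9, 35.0 and 41.6 FPKM in *bron-2*, a ratio of 1.72. Its wild type libraries lay close together, and its lowest *bron-2* library was 1.41 times its highest wild type library. XTH16, which cuts and rejoins xyloglucan chains, was at 71.9, 50.5 and 65.4 FPKM in wild type against 90.0, 95.7 and 106.1 FPKM in *bron-2*, a ratio of 1.55. BXL1, an enzyme that trims xylose and arabinose from wall polysaccharides, was at 59.7, 77.5 and 114.4 FPKM in wild type against 147.5, 140.2 and 145.9 FPKM in *bron-2*, a ratio of 1.71. The *bron-2* libraries of BXL1 agreed closely while its wild type libraries spread widely, with replicate 3 nearest to *bron-2*.

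AGP17, an arabinogalactan protein, was at 12.2, 8.64 and 14.1 FPKM in wild type against 22.7, 18.1 and 22.2 FPKM in *bron-2*, a ratio of 1.74. AT4G36430, annotated as a peroxidase, was at 5.24, 4.28 and 5.77 FPKM in wild type against 7.33, 11.1 and 12.48 FPKM in *bron-2*. Many plant peroxidases act on phenolic compounds of the wall. Of 55 peroxidase genes averaging 5 FPKM or more, 1 met the rule (1.82%, against 0.525% of all genes) and none met the mirrored rule. AT2G45220, of the pectin methylesterase and inhibitor family, which acts on wall pectin, was among the high members at 134.7, 183.6 and 232.8 FPKM in wild type and 246.8, 286.1 and 275.5 FPKM in *bron-2*. Its wild type libraries differed more among themselves than its *bron-2* libraries did, and wild type replicate 3 came within 1.06 times of the lowest *bron-2* library.

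ELP, an extensin-like protein, had the highest level of the 64, with a mean of 1748 FPKM. Its libraries read 1299, 1391 and 1599 FPKM in wild type against 1784, 1984 and 2430 FPKM in *bron-2*. The next in level, AT2G45180, belongs to the family of lipid transfer proteins and was at 305.7, 268.1 and 367.2 FPKM in wild type and 397.4, 447.5 and 567.2 FPKM in *bron-2*. In both of these small secreted proteins replicate 3 was the highest library of each genotype. A second gene of the lipid transfer family, AT1G73780, lay at the low end, at 5.06, 1.87 and 1.77 FPKM in wild type and 7.86, 9.83 and 6.75 FPKM in *bron-2*, a ratio of 2.34. Its mean over all libraries was close to the limit of the rule, and it fell out when *bron-2* replicate 2 was left out.

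Enzymes that act on sugars or lipids outside the cell made up much of the remainder. The beta-glucosidase BGLU11 had a ratio of 1.54 and the glycosyl hydrolase AT2G05790, of the family of beta-1,3-glucanases, a ratio of 1.44. Among the GDSL lipases, AT5G55050 was at 54.2, 45.6 and 35.6 FPKM in wild type and 70.0, 65.7 and 55.7 FPKM in *bron-2*, and AT2G31540 had a ratio of 1.56. AT5G55050 was lowest in replicate 3 of both genotypes, unlike most of the 64. AT1G09750, an aspartyl protease, had a ratio of 1.70 at 34.9, 32.1 and 43.5 FPKM in wild type and 53.4, 63.7 and 72.5 FPKM in *bron-2*. The proline-rich protein AT1G54215 had a ratio of 1.59 and the hydroxyproline-rich AT1G65690 a ratio of 1.404.

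By words in the annotation, 4 of 59 lipid transfer or GDSL lipase genes averaging 5 FPKM or more met the rule (6.78%), beside 1 that met the mirrored rule. In the cell wall group 5 of 183 met it (2.73%) and 4 met the mirrored rule, and among glycosyl hydrolases the counts were 3 of 100 and 3. The median log2 ratio of all measured genes was 0.05 in the lipid transfer and GDSL group, 0.05 in the cell wall group and 0.01 among glycosyl hydrolases. Over all 12197 genes, 0.525% met the rule and 1.19% the mirrored rule, and no test was made of the difference between these groups and the rest.

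Among the 8 genes of protein folding and turnover, AT1G12760 had the widest separation of all 64. It encodes a RING finger protein, a type that often acts as a ubiquitin ligase, and was at 8.69, 11.0 and 9.38 FPKM in wild type against 45.5, 42.2 and 38.3 FPKM in *bron-2*. The ratio was 4.02, and the lowest *bron-2* library was 3.47 times the highest wild type library. Its gene spans chr1:4348498-4350993 on the plus strand of TAIR10.1, with 5 exons. The neighbours on each side showed no such difference, since AT1G12750, which ends shortly before it on the other strand, had a ratio of 0.99 and AT1G12770, which starts shortly after it, also had a ratio of 0.99. LUL1, another ubiquitin ligase of the RING type, was at 3.72, 5.04 and 5.07 FPKM in wild type and 6.84, 8.48 and 9.64 FPKM in *bron-2*. Counting Hrd1B, 3 of 257 RING or ubiquitin ligase genes met the rule (1.17%, against 0.525% of all genes). The mirrored rule was met by 4 (1.56%, against 1.19% of all).

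ATERDJ3A, Hrd1B and UTR3 all work in the ER and shared a pattern over the libraries. ATERDJ3A is a DnaJ co-chaperone of the ER and was at 5.68, 6.28 and 9.10 FPKM in wild type against 26.7, 16.4 and 9.27 FPKM in *bron-2*. Its ratio of 2.30 came from *bron-2* replicates 1 and 2, because *bron-2* replicate 3 was only 1.02 times wild type replicate 3. Hrd1B, a ubiquitin ligase of the ER membrane that marks misfolded proteins for degradation, was at 24.7, 29.4 and 36.9 FPKM in wild type and 55.9, 51.4 and 41.1 FPKM in *bron-2*. UTR3, a nucleotide sugar transporter of the ER and Golgi, was at 29.1, 28.4 and 33.2 FPKM in wild type and 51.4, 47.1 and 37.3 FPKM in *bron-2*. In all of these genes, replicate 3 was the highest wild type library and the lowest *bron-2* library, so the genotypes were far apart in replicates 1 and 2 and closer in replicate 3. Over all 64 genes 10 (15.6%) had this pattern, as did 10.6% of the 12197.

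A list of 10 further ER genes, drawn up after this pattern was seen, was read in the same way. TIN1, a gene named for its induction by the ER stressor tunicamycin, was at 3.43, 2.27 and 6.70 FPKM in wild type and 18.8, 13.99 and 6.67 FPKM in *bron-2*, and missed the rule only because its groups overlapped in replicate 3. BIP3, a chaperone induced when unfolded proteins build up, was at 0.164, 0.0850 and 0.851 FPKM in wild type and 2.40, 2.05 and 0.706 FPKM in *bron-2*, below the level condition. Like ATERDJ3A, both were lower in *bron-2* replicate 3 than in the other *bron-2* libraries. UTR1, a transporter of the same type as UTR3, was at 13.6, 13.9 and 19.4 FPKM in wild type and 24.9, 23.6 and 17.3 FPKM in *bron-2*. The abundant chaperones lay near equality, with a ratio of 0.99 for BIP1, 0.92 for BIP2, 1.06 for CNX1 and 1.03 for CRT1a. The whole pattern, with replicate 3 the highest wild type and the lowest *bron-2* library, held in 5 of the 10, namely BIP3, CRT1a, UTR1, AT1G18830 and TIN1. In BIP1, BIP2, ATERDJ3B and CNX1 *bron-2* replicate 3 was the lowest *bron-2* library but wild type replicate 3 was the lowest wild type library too, and Hrd1A was highest in replicate 3 of both genotypes, at 16.2 and 18.6 FPKM. Of the 10, 8 averaged 5 FPKM or more and 3 had a ratio of at least 1.4, namely TIN1, BIP3 and AT1G18830. Only 1, AT1G18830, had groups that did not overlap, at a mean of 0.493 FPKM, and BIP3 had a mean of 1.04 FPKM. Over the 12197 genes, 0.869% reached that ratio and 7.58% had groups that did not overlap with *bron-2* higher.

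**Figure D3:**
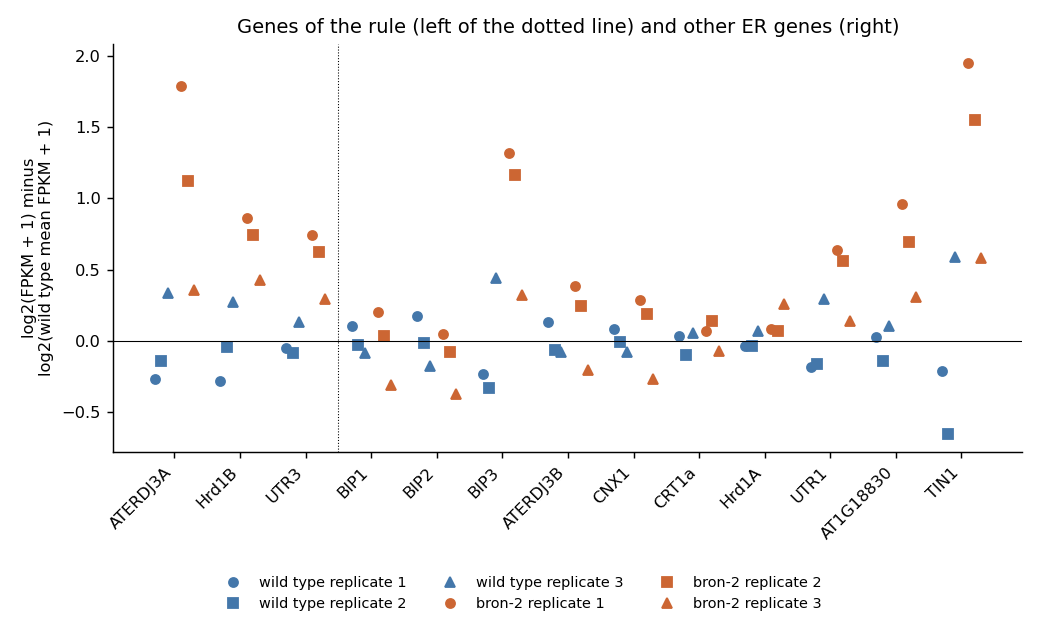
ER genes on the horizontal axis, with the 3 genes of the rule left of the dotted line and 10 further genes right of it; the vertical axis is log2(FPKM + 1) of each library minus log2 of the wild type mean + 1, with blue symbols for wild type and orange for *bron-2*. *bron-2* replicates 1 and 2 (circle and square) stand high for ATERDJ3A, Hrd1B, UTR3, BIP3, UTR1, AT1G18830 and TIN1, where *bron-2* replicate 3 (triangle) lies lower.

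The remaining folding genes did not follow this pattern. AT5G35100, a cyclophilin-type isomerase of proline bonds, was at 7.22, 8.67 and 10.2 FPKM in wild type and 11.4, 12.1 and 17.9 FPKM in *bron-2*. ty2, a plastid thioredoxin, was at 7.44, 6.20 and 7.37 FPKM in wild type and 8.29, 8.14 and 15.5 FPKM in *bron-2*. Most of the difference in ty2 came from *bron-2* replicate 3, which was the lowest *bron-2* library for ATERDJ3A, Hrd1B and UTR3. TTL4, a tetratricopeptide and thioredoxin-like protein, had a ratio of 1.43 with *bron-2* replicate 2 highest.

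Of the 6 genes with a DNA-binding, RNA-binding or transcription regulator annotation, BNQ3 had the largest ratio. It encodes a small helix-loop-helix protein without the basic region needed to contact DNA, of a type that binds other helix-loop-helix factors and keeps them from their targets. Its level was 14.3, 7.68 and 12.48 FPKM in wild type and 22.0, 27.6 and 34.3 FPKM in *bron-2*, a ratio of 2.32. GATA4, a zinc finger transcription factor, was at 51.9, 69.6 and 72.5 FPKM in wild type and 80.0, 82.4 and 116.9 FPKM in *bron-2*, and replicate 3 was highest in both genotypes. LBD14, of the plant LOB domain family, was at 8.09, 6.67 and 8.87 FPKM in wild type and 13.5, 14.3 and 10.8 FPKM in *bron-2*. The AT-hook protein AT5G49700 had a ratio of 1.56, the zinc finger gene AT5G22890 a ratio of 1.45 and the RNA-binding gene AT5G19030 a ratio of 1.48. By words in the names, 1 of 376 transcription factor genes met the rule (0.266%, against 0.525% of all genes). The mirrored rule was met by 10 (2.66%, against 1.19% of all). The words caught GATA4 but not BNQ3, LBD14, AT5G49700 or AT5G22890, so this count leaves out regulators among the 64.

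PHOT1, ILL6, CLE5 and GA3OX1 act in signalling. PHOT1, the blue light receptor of phototropism, was at 12.7, 10.5 and 11.3 FPKM in wild type and 17.7, 17.4 and 17.6 FPKM in *bron-2*. Its *bron-2* libraries were nearly equal, and its lowest was 1.37 times the highest wild type library. GA3OX1, which carries out the last step in making active gibberellin, was at 11.5, 10.9 and 14.3 FPKM in wild type and 17.5, 17.6 and 18.6 FPKM in *bron-2*. Its relative GA3OX2 was lower, at 3.53, 1.63 and 1.37 FPKM in wild type and 4.98, 3.18 and 4.34 FPKM in *bron-2*, and its groups overlapped. CLE5, a gene for a secreted signalling peptide, was at 34.8, 37.2 and 47.2 FPKM in wild type and 51.8, 63.9 and 71.4 FPKM in *bron-2*. ILL6, annotated as a hydrolase of hormone conjugates, was at 5.33, 4.30 and 6.46 FPKM in wild type and 7.58, 9.55 and 10.7 FPKM in *bron-2*. In CLE5 and ILL6 replicate 3 was again the highest library of both genotypes.

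The enzymes of metabolism were led by AT2G23400, a prenyltransferase that builds long isoprenoid chains. Its libraries read 7.01, 7.39 and 6.81 FPKM in wild type and 18.5, 14.3 and 15.9 FPKM in *bron-2*, and after AT1G12760 and AT2G41650 it had the widest gap, with the lowest *bron-2* library at 1.94 times the highest wild type library. Its neighbour AT2G23410 had a ratio of 1.102 with 129.2, 120.9 and 109.4 FPKM in wild type. CYP83B1, a cytochrome P450 of indole glucosinolate synthesis, was at 23.2, 29.0 and 33.4 FPKM in wild type and 40.7, 48.6 and 39.1 FPKM in *bron-2*. Other genes of that pathway, taken from a list drawn up after the values were seen, had ratios of 1.56 for CYP79B2, 1.11 for CYP79B3, 1.105 for SUR1, 1.17 for UGT74B1, 1.14 for SOT16 and 0.94 for GSTF10. Of the genes on this list, the groups did not overlap for CYP79B2 and UGT74B1, with *bron-2* higher, and none met the rule. CYP79B2, at a mean of 4.15 FPKM, missed it only by the level condition. Over the 12197 genes, 7.58% had groups that did not overlap with *bron-2* higher. GSTF9, a close relative of GSTF10, was not on the list and did meet the rule, with a ratio of 1.42. The list therefore cannot show whether CYP83B1 was the only gene of the pathway to meet it.

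GSTF9, a glutathione S-transferase, was among the most abundant of the 64, at 164.7, 172.7 and 209.1 FPKM in wild type and 241.9, 277.0 and 260.6 FPKM in *bron-2*. Its neighbour on chromosome 2 and close relative GSTF10 had a ratio of 0.94 at a mean of 829.8 FPKM, and how reads that match both genes were shared between them is not given in the sources used here. CYP84A4, a second P450, was at 5.87, 6.55 and 6.96 FPKM in wild type and 10.7, 10.2 and 9.44 FPKM in *bron-2*. The libraries of CYP84A4 agreed well within each genotype. AT1G76470, an oxidoreductase with a Rossmann fold, was likewise even, at 3.20, 3.48 and 4.07 FPKM in wild type and 6.60, 6.32 and 7.16 FPKM in *bron-2*. The ratio was 1.61 for the oxidoreductase AKR4C8, 1.54 for AT5G02580, 1.47 for the methyltransferase AT2G41380 and 1.43 for the sugar transferase AT2G22930. AT5G02580 had the narrowest gap of the 64, with 7.65, 3.17 and 7.79 FPKM in wild type and 7.89, 9.80 and 12.7 FPKM in *bron-2*.

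Of the 7 membrane genes, CHX17, a cation and proton exchanger of root cells, had the highest level and was at 17.6, 24.1 and 29.9 FPKM in wild type and 31.0, 33.6 and 38.9 FPKM in *bron-2*. Its highest wild type library was close to its lowest *bron-2* library, a gap of 1.04. YLMG1-2 had a ratio of 1.88, at 4.59, 2.75 and 6.45 FPKM in wild type and 7.26, 11.1 and 10.2 FPKM in *bron-2*. AT1G05340, which carries a cysteine-rich transmembrane module found in stress tolerance proteins, was at 3.51, 5.60 and 6.62 FPKM in wild type and 7.71, 8.82 and 14.7 FPKM in *bron-2*. For the transporters AT1G15180 of the MATE family, UMAMIT44 of the amino acid exporters, AT5G05310 and AT2G41190, the ratios were 1.54, 1.42, 1.42 and 1.41. Counting UTR3, 6 of 358 transporter genes met the rule (1.68%, against 0.525% of all genes). The mirrored rule was met by 4 (1.12%, against 1.19% of all).

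The uncharacterized genes included the largest ratio of all. AT3G49551 was listed at 0 in wild type replicates 1 and 2, at 3.99 FPKM in replicate 3 and at 7.29, 22.8 and 10.3 FPKM in *bron-2*, a ratio of 6.21. It is a single exon of 168 bases, the shortest transcript of the 64, and 80 of these bases overlap AT3G49550 on the other strand, which was at 3.67, 4.53 and 4.53 FPKM in wild type and 5.26, 4.61 and 6.44 FPKM in *bron-2*. On so short a model few reads set the value, and the gene fell out when *bron-2* replicate 2 was left out. AT2G41650 was at 20.2, 15.4 and 20.1 FPKM in wild type and 39.1, 45.2 and 47.4 FPKM in *bron-2*, a ratio of 2.30 with the lowest *bron-2* library at 1.94 times the highest wild type library. Its model shares 1144 bases, 61.0% of its span, with AT2G41640 on the same strand, and that gene had a ratio of 0.82 with groups that overlapped, at 25.4, 17.9 and 21.7 FPKM in wild type and 19.8, 17.2 and 15.9 FPKM in *bron-2*. How fragments of the shared stretch were divided between the 2 genes is not given, so both values are uncertain.

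AT2G18270 lies wholly within TLP2 on the opposite strand and was at 11.2, 9.34 and 18.8 FPKM in wild type and 19.8, 27.3 and 22.4 FPKM in *bron-2*. TLP2 itself was at 30.0, 38.6 and 46.0 FPKM in wild type and 42.0, 45.7 and 46.4 FPKM in *bron-2*. AT4G20362, a non-coding RNA, shares 99.9% of its span with RABE1b on the opposite strand and was at 30.5, 29.7 and 51.8 FPKM in wild type and 57.9, 67.5 and 77.1 FPKM in *bron-2*. RABE1b was at 27.0, 29.1 and 34.1 FPKM in wild type and 26.1, 32.6 and 33.4 FPKM in *bron-2*, so the genotypes overlapped for this partner. Whether strand was used in counting is not given, and without it reads of such partners cannot be told apart. The second non-coding RNA, AT1G34418, had a ratio of 1.68.

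Of the other uncharacterized genes, AT2G31130, AT5G24570 and AT4G38490 had ratios of 1.43, 1.41 and 1.403. Among the 6 with another domain name, AT3G56210, an ARM repeat protein, was the most even, at 10.3, 10.3 and 11.2 FPKM in wild type and 15.2, 16.3 and 16.0 FPKM in *bron-2*. The kinase-like AT1G51840 had a ratio of 1.51, AT1G32690 one of 1.46, AT2G18193 and AT3G26510 one of 1.42 each and AT1G17940 one of 1.41. AT1G51840 was the single kinase by name, 1 of 698 measured (0.143%). None of 299 ribosomal protein genes, 39 histone genes, 60 F-box genes or 60 defence genes met the rule, and at the 0.525% of all genes few or none would be in groups of these sizes.

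**Figure D4:**
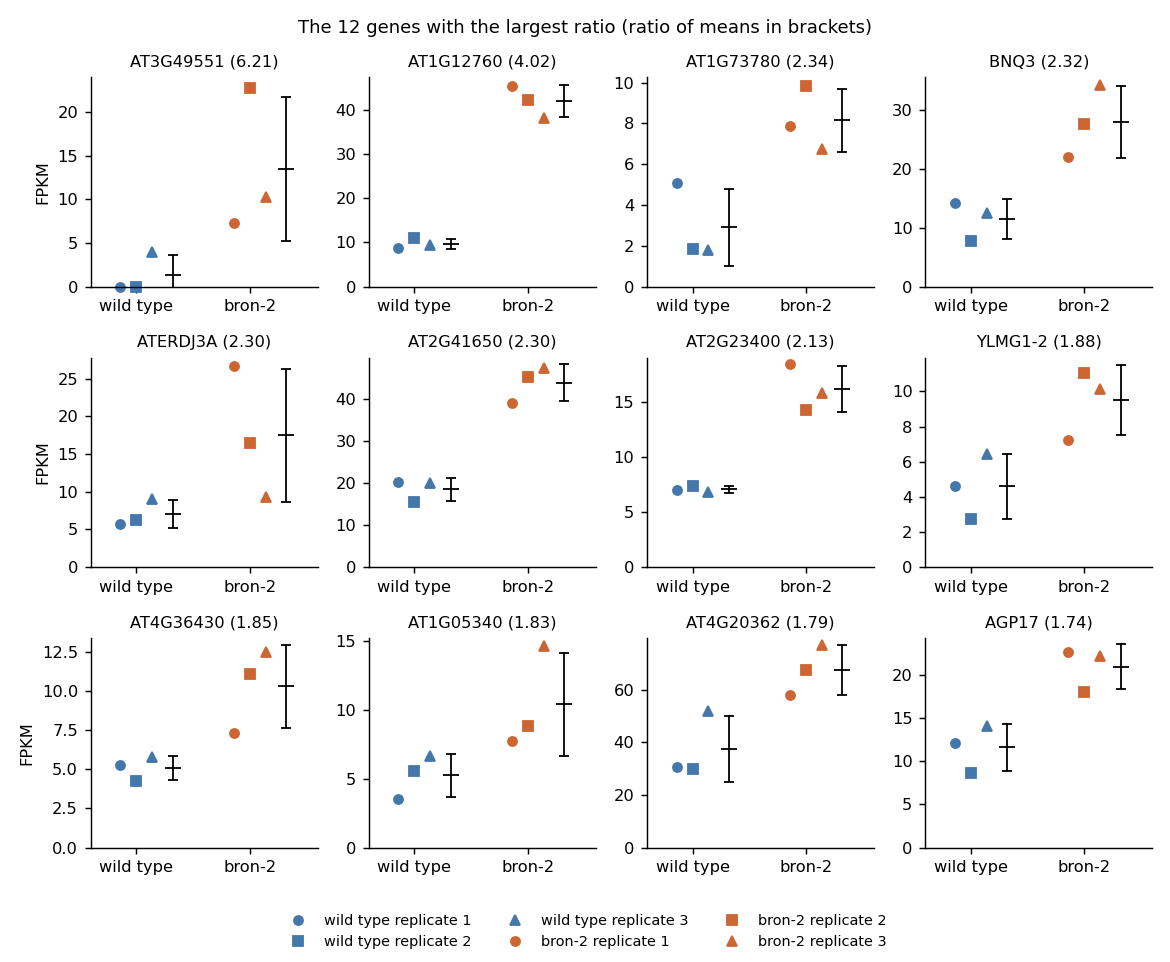
FPKM of each library on a linear axis from 0 for the 12 genes with the largest ratio, which stands in brackets; blue symbols are wild type, orange symbols *bron-2*, shapes mark the replicate number, and the bar beside each group is the mean ± SD (n = 3). AT1G12760, AT2G41650 and AT2G23400 have tight groups far apart, while AT3G49551 and ATERDJ3A have *bron-2* libraries that spread from 7.29 to 22.8 and from 9.27 to 26.7 FPKM.

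The spread between libraries was wide for these genes. Within wild type the median SD of log2(FPKM + 1) was 0.22 over the 64 and 0.13 over all 12197 genes, and within *bron-2* it was 0.21 and 0.12. These are the values that the rule used, and the 64 had a lower median level, 12.4 against 19.1 FPKM. The part of selection and of level in this spread was not tested. The lowest *bron-2* library was a median of 1.17 times the highest wild type library, with 16 genes under 1.1, 27 at 1.2 or more and 7 at 1.4 or more. The widest gaps after those of AT1G12760, AT2G41650 and AT2G23400 were 1.83 for AT3G49551, 1.55 for AT1G76470 and 1.54 for BNQ3. A large ratio of means did not always go with a wide gap, as ATERDJ3A and PHOT1 show.

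Wild type replicate 3 lay nearest to *bron-2*. It was the highest wild type library in 44 of the 64 genes (68.8%), against 40.4% of all 12197 genes, and replicate 2 was the highest in 4. *bron-2* replicate 3 was the highest *bron-2* library in 29 of the 64 (45.3%, against 37.0% of all), and replicate 1 the lowest in 37. In 21 genes (32.8%) replicate 3 was the highest of both genotypes, beside 20.01% of all genes and 10.3% of the genes that met the mirrored rule. The part of this library in the choice of the genes was not tested, but leaving out wild type replicate 3 left a rule that 244 genes met, 59 of the 64 among them.

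On the chromosomes the 64 were spread as 19, 18, 10, 6 and 11 over chromosomes 1 to 5. Chromosome 2 held 28.1% of them and 15.3% of all genes averaging 5 FPKM or more and a gene model, and chromosome 4 held 9.38% and 15.3%. Only 2 pairs lay within 20 kb of each other, both on chromosome 2: CLE5 and AT2G31130, 10.6 kb apart, and AT2G45180 and AT2G45220, 16.9 kb apart. In both pairs other genes lie between the members. The gene models were shorter than usual, with a median transcript of 1494 bases against 1721, a median protein of 301 residues against 375, and a median of 2.5 exons against 5. A single exon made up 14 of the 64 genes (21.9%, against 13.7%), and 15 overlapped another annotated gene (23.4%, against 31.8%).

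The 250 bases before each annotated start were searched on both strands for fixed short motifs in the TAIR10.1 genome. The G-box, CACGTG, which bZIP and helix-loop-helix factors bind, was found before 10 of the 64 genes (15.6%) and before 7.28% of 12154 genes averaging 5 FPKM or more. TGTCTC, a core of auxin response elements, was found before 13 (20.3%, against 10.3%), and the W-box of WRKY factors, TTGACC or TTGACT, before 10 (15.6%, against 29.1%). AAACCCTA was found before none (against 3.29%), TGGGCC before 10 (15.6%, against 17.2%), the MYB core AACGG before 16 (25.0%, against 21.7%), CGTGTG before 3 (4.69%, against 5.45%), CGTGCG before 2 (3.13%, against 1.87%), AAATATCT before 3 (4.69%, against 4.90%) and the GCC-box AGCCGCC before 1 (1.56%, against 0.510%). CGTGTG overlaps the G-box where the letters run CACACGTG. The windows had a median GC content of 29.4%, against 30.8% over all. These shares are a description of letters and carry no statement on binding.

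The last 200 bases before the start of 5 genes are printed from RefSeq TAIR10.1, each in the direction of its gene, with the searched motifs in capitals except AACGG. Hrd1B (chr1:24163670-24163869, minus strand) and UTR3 (chr1:4913168-4913367, minus strand) are shown because both ER genes with the shared library pattern have a G-box near the start. AT1G05340 (chr1:1559918-1560117, minus strand) has a G-box with CGTGTG and CGTGCG around it, AT2G45180 (chr2:18625988-18626187, plus strand) has 2 copies of TGTCTC, one on each strand, and AT1G12760 (chr1:4348298-4348497, plus strand) has the widest gap between genotypes.
Hrd1B: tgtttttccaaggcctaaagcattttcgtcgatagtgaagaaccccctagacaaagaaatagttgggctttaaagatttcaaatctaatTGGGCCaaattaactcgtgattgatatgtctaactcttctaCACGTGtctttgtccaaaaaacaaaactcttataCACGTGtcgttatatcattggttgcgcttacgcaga
UTR3: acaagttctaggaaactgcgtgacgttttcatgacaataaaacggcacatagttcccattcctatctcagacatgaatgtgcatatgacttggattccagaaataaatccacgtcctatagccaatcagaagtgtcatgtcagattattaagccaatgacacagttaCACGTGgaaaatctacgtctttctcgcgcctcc
AT1G05340: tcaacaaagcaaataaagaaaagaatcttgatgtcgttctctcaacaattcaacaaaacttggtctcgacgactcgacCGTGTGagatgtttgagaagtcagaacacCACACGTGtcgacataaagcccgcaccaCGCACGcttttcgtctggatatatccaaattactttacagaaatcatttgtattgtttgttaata
AT2G45180: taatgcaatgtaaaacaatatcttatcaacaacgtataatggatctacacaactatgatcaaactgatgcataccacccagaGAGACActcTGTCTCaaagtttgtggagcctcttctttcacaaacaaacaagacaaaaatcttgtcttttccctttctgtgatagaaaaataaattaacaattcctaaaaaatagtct
AT1G12760: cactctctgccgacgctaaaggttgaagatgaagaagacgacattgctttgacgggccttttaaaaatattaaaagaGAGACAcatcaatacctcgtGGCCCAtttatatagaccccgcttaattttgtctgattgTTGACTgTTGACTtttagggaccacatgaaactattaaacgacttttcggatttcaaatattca
The G-boxes of Hrd1B begin 70 and 36 bases before the start and that of UTR3 begins 33 bases before it. ATERDJ3A, the third ER gene, has none of the capital motifs in its last 200 bases. The copies of TGTCTC before AT2G45180 begin 118 and 109 bases before the start, and AT1G12760 has the W-box letters TTGACT in a pair, 64 and 57 bases before its start.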

How the data were processed

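The deposited values are FPKM per gene and library. Per the labels and the methods, the authors prepared libraries from total RNA, mapped single-end reads to TAIR10 and obtained FPKM with Cufflinks. The Cufflinks version, the annotation, the use of strand and what was done with reads matching more than 1 gene are not given in the sources used here. FPKM give no read numbers, so relative depth was estimated from the steps between low values and no counting interval was made. All 6 columns were used and no 2 were identical.

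The rule was applied to the values as deposited, with a pseudocount of 1 FPKM in the ratio, in Python 3.11.15 with pandas 2.3.3 and numpy 2.4.6. The selection was also run on simulated data with planted changes larger than most of those reported here. That run checks the calculation only and does not show how well changes of the size seen here are found. Of 33560 identifiers, 32826 had a model in TAIR10.1, which gave names, coordinates and sequence, and the files carry no coordinates. Motifs were searched in 250 upstream bases because no promoter table was used. No test was run, since the rule used the whole comparison. The members, gene lists and cell type markers were chosen with earlier results of these data known, and the roles, the ER, glucosinolate and gibberellin lists after values were seen. Genes were named by largest ratio, highest mean, widest gap, place at the limits, function group, neighbours and mention in the study's supplements. Alternatives were another pseudocount, level and ratio limits, 2 scalings, pairing by replicate number and leaving out each library.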

Additional observations from a re-analysis of the deposited data

How the results depend on the processing

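Counts of genes that met the rule, with those of the mirrored rule after them, followed the limits by construction. They were 108 and 241 for averages from 1 FPKM, 42 and 91 for averages from 10 FPKM, 139 and 273 with no condition on the mean, 230 and 389 at a ratio limit of 5 to 4, and 33 and 82 at a ratio limit of 1.5, against 64 and 145. A pseudocount of 0.1 FPKM gave 79 and 182, median ratio scaling 73 and 129, and quantile normalization 72 and 133, and the 64 were kept under the first and second and 63 of them under the last, which lost ELP. Leaving out 1 library at a time gave 68 to 244 and 147 to 305 genes, since fewer libraries overlap less, and 47 to 59 of the 64 were kept. The count of higher genes was 244 without wild type replicate 3, 131 without *bron-2* replicate 1 and 104 without wild type replicate 1, and the count of lower genes was 305 without wild type replicate 3. Leaving out replicate 3 of both genotypes, chosen after seeing the data, gave 204 and 331, with 53 of the 64 kept. The median log2 ratio of the 64 stayed between 0.56 and 0.70 when 1 library was left out, and 30 of the 64 were kept in all 9 settings of pseudocount, scaling and single libraries.

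Libraries of the same replicate number deviated from their genotype means with a correlation over genes of 0.17, -0.03 and 0.29 for replicates 1, 2 and 3. Between libraries of unlike number it ran from -0.300 to 0.177. Whether the numbers pair the samples was not tested. Asking each *bron-2* library to exceed only the wild type library of its number, a replicate block, gave 90 and 191 genes. With 3 libraries a genotype and no read numbers, low genes such as AT3G49551 are the least precise.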
